A study of Sus scrofa with 24 samples.

Results

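Messenger RNA levels of newborn pigs 1 day after birth (1 dpn, days post natum) were compared with those of fetuses at 94 days post conception (94 dpc). The comparison uses 12 of the 24 samples of the series, 6 per stage, chosen by their stage label alone. All were offspring of German Landrace gilts that received a high protein diet during gestation, so both stages share breed and maternal diet and no effect of the diet is measured here. The offspring of a stage came from 3 gilts, and the labels give neither the mother nor the sex of an animal. Every animal was measured on 1 Affymetrix Porcine Genome array, on which sets of short oligonucleotide probes (probe sets) each read 1 transcript. The sample labels name liver as the tissue and the series title names muscle. In every array the summed signal of skeletal muscle fibre markers was above that of liver plasma protein markers, with values given below.

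Birth ends the supply of oxygen and nutrients through the placenta, and in late gestation rising cortisol and thyroid hormone prepare fetal organs for it. In the pig the number of muscle fibres is largely set before birth, and later growth comes mostly from the enlargement of fibres that already exist. During this period muscle exchanges fetal for mature contractile proteins, and dividing precursor cells become fewer relative to fibres. Genes of energy metabolism are not described below, except the glucose transporter SLC2A3, a member of the hypoxia list.

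Levels are geometric means of the 6 arrays of a stage in scaled intensity units, and a gene is read by the brightest of its probe sets. Brackets after a pair of levels give the log2 difference, 1 dpn minus 94 dpc, with its standard error (n = 6 in each stage). Then follow the same difference after quantile normalization of all arrays and the difference without 3 arrays of 1 dpn that are described next. The standard error is that of the limma fit, with a variance pooled over all stages of the series. It therefore understates the scatter of genes whose newborns differ widely. For the gene MEG3 it was 0.52, where the standard deviation of log2 values was 0.096 at 94 dpc and 1.74 at 1 dpn. A gene "rose" or "fell" if its difference passed an adjusted p of 0.05 in limma over all 23935 probe sets, and "all 3 fits" means that it passed in the same direction as deposited, after quantile normalization and without those 3 arrays. If the mean of a stage was under 74.7, the background level, the bracket holds a minimum fold relative to it and the adjusted p, since the lower level is then only a bound. These are whole tissue samples, in which fewer cells of a type and less RNA per cell cannot be told apart.

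The 3 arrays of newborns 1, 2 and 3 had a low ratio of 5′ to 3′ signal for the GAPDH control transcript, a measure used to judge RNA integrity on these arrays. The ratio was 0.111, 0.296 and 0.254 in these low-ratio arrays, 1.14, 0.841 and 1.04 in newborns 4, 5 and 6, and 1.12 to 1.26 in the 6 fetuses. The 16 spike probe sets, which read bacterial transcripts added in fixed amounts, had a geometric mean of 1941 to 2966 at 94 dpc and 5144 to 8065 at 1 dpn, without overlap, and within 1 dpn 6887 to 8065 in the low-ratio arrays against 5144 to 6354 in the others. The median signal of an array was 154 to 188 at 94 dpc and 130.4 to 146 at 1 dpn. The scale of the 2 stages therefore differed, and the mean spike difference, 1 dpn minus 94 dpc, was 1.306 on the log2 scale. None of the alternative fits uses the spike probe sets, so the part of this difference in single results was not tested. The part of the GAPDH ratio and of the array median was addressed only by the alternative fits.

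**Figure D1:**
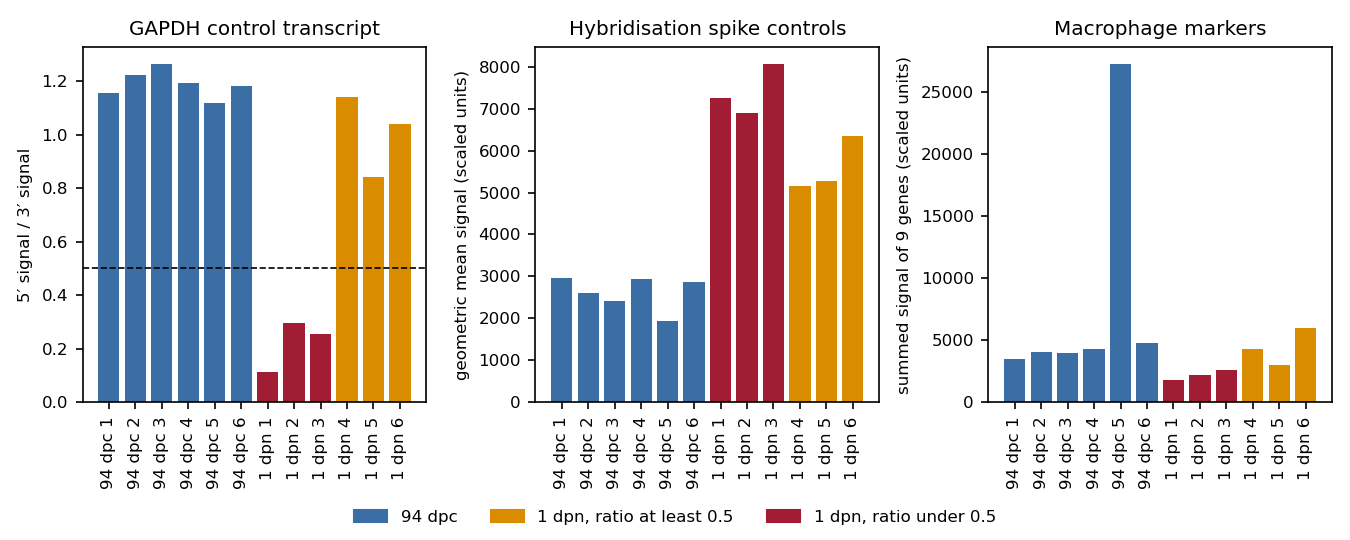
Bars give, for each array of 94 dpc (blue) and 1 dpn (orange and red), the GAPDH 5′ to 3′ signal ratio, the geometric mean of 16 spike probe sets and the summed signal of 9 macrophage markers, each in its own panel on a linear axis from 0. The dashed line marks the ratio of 0.5 that separates the 3 low-ratio arrays (red). Spike signals do not overlap between the stages, and fetus 5 alone has a macrophage sum of 27220.0.

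Markers of skeletal muscle fibres were among the brightest transcripts of every array, with a list median between the 99.5 and 99.8 percentile of probe sets at 94 dpc and 1 dpn. Of these fibre markers 8 of 11 rose and none fell, with 0 lower at an unadjusted p under 0.05 in limma (rises and falls were 3 and 1 after quantile normalization, 10 and 0 without the low-ratio arrays and 3 and 0 in all 3 fits, and brackets after later counts give these in the same order). Plasma protein markers of liver had list medians between the 33.8 and 92.4 percentile at 1 dpn and the 35.04 and 91.1 percentile at 94 dpc, so they varied widely among animals. Their summed signal was 8132 to 65785 at 94 dpc and 2938 to 42379 at 1 dpn, against 219116 to 341166 and 449744 to 581966 for the fibre markers. Of the liver markers 2 of 14 fell and none rose, with 0 higher at an unadjusted p (0 and 2, 0 and 0, 0 and 0), and no fall remained when any of newborns 2, 4 and 5 or fetuses 1 to 4 was left out. Fetus 5 stood apart from the other fetuses: its summed signal of macrophage markers was 27220.0 against 3473 to 4735, of lymphocyte markers 2329.7 against 251 to 357, and of fibre markers 219116 against 297294 to 341166. Markers of red, mural, immune, nerve and fat cells gave small counts. These are to be read beside the shares of all genes, of which 17.1% rose and 20.7% fell as deposited. Of the erythroid markers 1 of 6 fell and none rose, with 0 higher at an unadjusted p (0 and 1, 0 and 1, 0 and 1), of the smooth muscle and pericyte markers 1 of 5 fell and none rose, with 1 higher at an unadjusted p (0 and 2, 0 and 1, 0 and 1), and of the macrophage markers 1 of 9 fell and none rose, with 0 higher at an unadjusted p (0 and 1, 0 and 0, 0 and 0). Of the Schwann cell and nerve markers 1 of 6 fell and none rose, with 0 higher at an unadjusted p (0 and 1, 0 and 2, 0 and 1), and of the adipocyte markers 2 of 9 rose and 1 fell (1 and 0, 2 and 0, 0 and 0). None passed in either direction of 9 lymphocyte, 5 neutrophil and 4 cartilage and tendon markers in limma (0 and 0, 0 and 0, and 1 and 0 higher and lower at an unadjusted p under 0.05), and 8 of the lymphocyte and 4 of the neutrophil markers lay under background at both stages. The summed signal of the cartilage and tendon markers was 940 to 2690 at 94 dpc. At 1 dpn it ranged from 202 in newborn 5 to 16226 in newborn 6. The small counts of markers moved with single animals. Without fetus 5 no macrophage marker fell, 1 lymphocyte marker and 1 adipocyte marker rose, and the macrophage fall was also lost without newborn 1, 2 or 3. The adipocyte fall was lost without any of 10 animals, 3 Schwann cell markers fell without newborn 1 and 2 without newborn 3 or fetus 3, and 1 of the lymphocyte markers fell without newborn 4.

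Of 6765 genes, 1158 rose from 94 dpc to 1 dpn (17.1%) and 1397 fell (20.7%) in the deposited values, 37.8% in either direction. After quantile normalization the balance turned, with 1381 genes higher (20.4%) and 1108 lower (16.4%), and centring every array on its own median gave 1835 higher and 747 lower. Without the low-ratio arrays 1060 genes rose (15.7%) and 1157 fell (17.1%). In all 3 fits 746 rose (11.0%) and 800 fell (11.8%). The arrays of the stages did not overlap for 681 genes higher (10.1%) and 600 genes lower (8.87%) at 1 dpn. These percentages are the background against which the counts of markers above and of list members below are to be read. They include 234 energy genes, and without those 15.4% rose and 21.2% fell as deposited. The median log2 difference over all genes was -0.062 (0.086 after quantile normalization and -0.05 without the low-ratio arrays, the order used below), and 0.26 after centring, so a list median is to be read against the value of the same fit.

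The genes with the largest rises outside energy metabolism had roles in autophagy, chaperoning, calcium pumping and vesicle transport. TP53INP2, which takes part in the formation of autophagosomes, measured 76.1, 219.7 and 261 at 94 dpc (lowest, median and highest array, here and below) and 2177, 2511 and 5368 at 1 dpn. Its level thus rose from 186 to 3035 (4.03 ± 0.28, 4.28 and 4.37) with no overlap between the stages. HSPB7, a small heat shock protein of heart and skeletal muscle, measured 396, 578 and 756 at 94 dpc and 5609, 7518 and 10983 at 1 dpn. It rose from 572 to 7787 (3.77 ± 0.21, 3.95 and 3.78), and the dimmest newborn lay above the brightest fetus. ATP2A1, the calcium pump of the sarcoplasmic reticulum in fast fibres, measured 557, 1409.7 and 1809.8 at 94 dpc and 11506, 15299 and 22484 at 1 dpn. It rose from 1269 to 15147 (3.58 ± 0.22, 3.55 and 3.36), again without overlap.

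Transport and enzyme genes were among the other large rises, and all passed in all 3 fits with no overlap between the arrays of the stages. MYO5B, a myosin motor that moves vesicles, rose from 90.6 to 1079 (3.57 ± 0.38, 3.78 and 3.22), and RAB3A, a small GTPase of regulated secretion, rose from 79.9 to 624 (2.97 ± 0.42, 3.23 and 2.93). DDO, the oxidase of D-aspartate, rose from 136 to 1604 (3.56 ± 0.26, 3.81 and 3.43). ANKRD9, an ankyrin repeat protein, rose from 314 to 3136 (3.32 ± 0.27, 3.598 and 2.98). CLIP4, a protein with a domain that binds microtubules, rose from 121 to 880.4 (2.87 ± 0.58, 3.13 and 2.26). ENDOG, an endonuclease of mitochondria, rose from 265 to 1645 (2.63 ± 0.29, 2.91 and 3.33). For 5 further genes the fetal mean lay under background, so their rises are bounds and have no rank. TRNP1, a nuclear protein, rose from 11.2 to 365 (at least 4.89-fold, adjusted p = 2.4e-07), CST6, a cystatin that inhibits cysteine proteases, rose from 27.8 to 667 (at least 8.93-fold, adjusted p = 5.9e-06), and SDF2L1, part of a chaperone complex of the endoplasmic reticulum, rose from 24.5 to 309 (at least 4.14-fold, adjusted p = 5.9e-05). AKR1CL1, of the aldo-keto reductase family, rose from 29.5 to 345 (at least 4.62-fold, adjusted p = 4.0e-07), and FAAH, the hydrolase of fatty acid amides such as endocannabinoids, rose from 46.5 to 314 (at least 4.21-fold, adjusted p = 1.5e-04).

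The largest falls were of fetal contractile isoforms, matrix proteins, imprinted transcripts and cell division genes. TNNT2, the cardiac troponin T that fetal skeletal muscle also makes, measured 2044, 3368 and 3776 at 94 dpc and 21.3, 56.9 and 88.7 at 1 dpn. It fell from 3041 to 48.8 (at least 40.7-fold, adjusted p = 3.9e-09), and every newborn lay below every fetus. MYL4, the embryonic and atrial myosin light chain, fell from 6286 to 237 (-4.73 ± 0.29, -5.02 and -4.24). SPP1, the secreted phosphoprotein osteopontin, measured 4109.6, 6825 and 20499 at 94 dpc and 216, 389 and 612 at 1 dpn, with fetus 5 the highest. It fell from 7493 to 384 (-4.29 ± 0.63, -4.598 and -4.61), and without fetus 5 it fell by 3.996 on the log2 scale. POSTN, the matricellular protein periostin, fell from 12760.1 to 953 (-3.74 ± 0.496, -4.21 and -3.17), VCAN, the large proteoglycan versican, fell from 2264 to 237 (-3.26 ± 0.31, -3.29 and -2.99), and MDK, the heparin-binding growth factor midkine, fell from 3242 to 222 (-3.87 ± 0.41, -4.01 and -3.899). UBE2C, the ubiquitin-conjugating enzyme of the anaphase-promoting complex, fell from 987 to 79.3 (-3.64 ± 0.66, -3.38 and -3.06), and LMNB1, the nuclear lamin B1, fell from 1244 to 127 (-3.298 ± 0.27, -3.18 and -3.48). All 8 passed in all 3 fits and none overlapped between the stages.

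Of the other large falls, 5 were larger in the low-ratio arrays than in the other newborns. MEG3, a long noncoding RNA of an imprinted locus, measured 9761, 10559.7 and 11719 at 94 dpc and 161, 844 and 2027 at 1 dpn. The 3 low-ratio newborns had a mean of 203 and the other 3 of 1796, all below the fetuses, and the gene fell from 10694 to 604 (-4.15 ± 0.52, -4.59 and -2.57). RBPJ, the DNA-binding factor of the Notch pathway, fell from 1715 to 139 (-3.63 ± 0.59, -3.64 and -2.14), with 49.5 in the low-ratio newborns and 389 in the others. LHFP, named as a fusion partner in lipoma, fell from 1074 to 102 (-3.39 ± 0.53, -3.24 and -2.11), with 41.9 against 249.6. PTPRA, a receptor tyrosine phosphatase, fell from 354 to 38.4 (at least 4.74-fold, adjusted p = 5.7e-04), with 10.9 against 135. NR3C1, the glucocorticoid receptor, measured 551, 808 and 916 at 94 dpc and 14.0, 136 and 281 at 1 dpn. It fell from 759.6 to 82.7 (-3.199 ± 0.54, -2.92 and -1.59), with 27.0 in the low-ratio newborns and 253 in the others. These 5 genes passed in all 3 fits and did not overlap between the stages. In a limma fit of only the 2 stages their adjusted p was 0.0012 (MEG3) to 0.016 (PTPRA). Whether the RNA quality had a part in the larger fall was not tested. PEG10, an imprinted gene derived from a retrotransposon, did not show that split: it fell from 17363 to 1696 (-3.36 ± 0.57, -3.86 and -3.69), and newborn 6 was the lowest at 128.

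**Figure D2:**
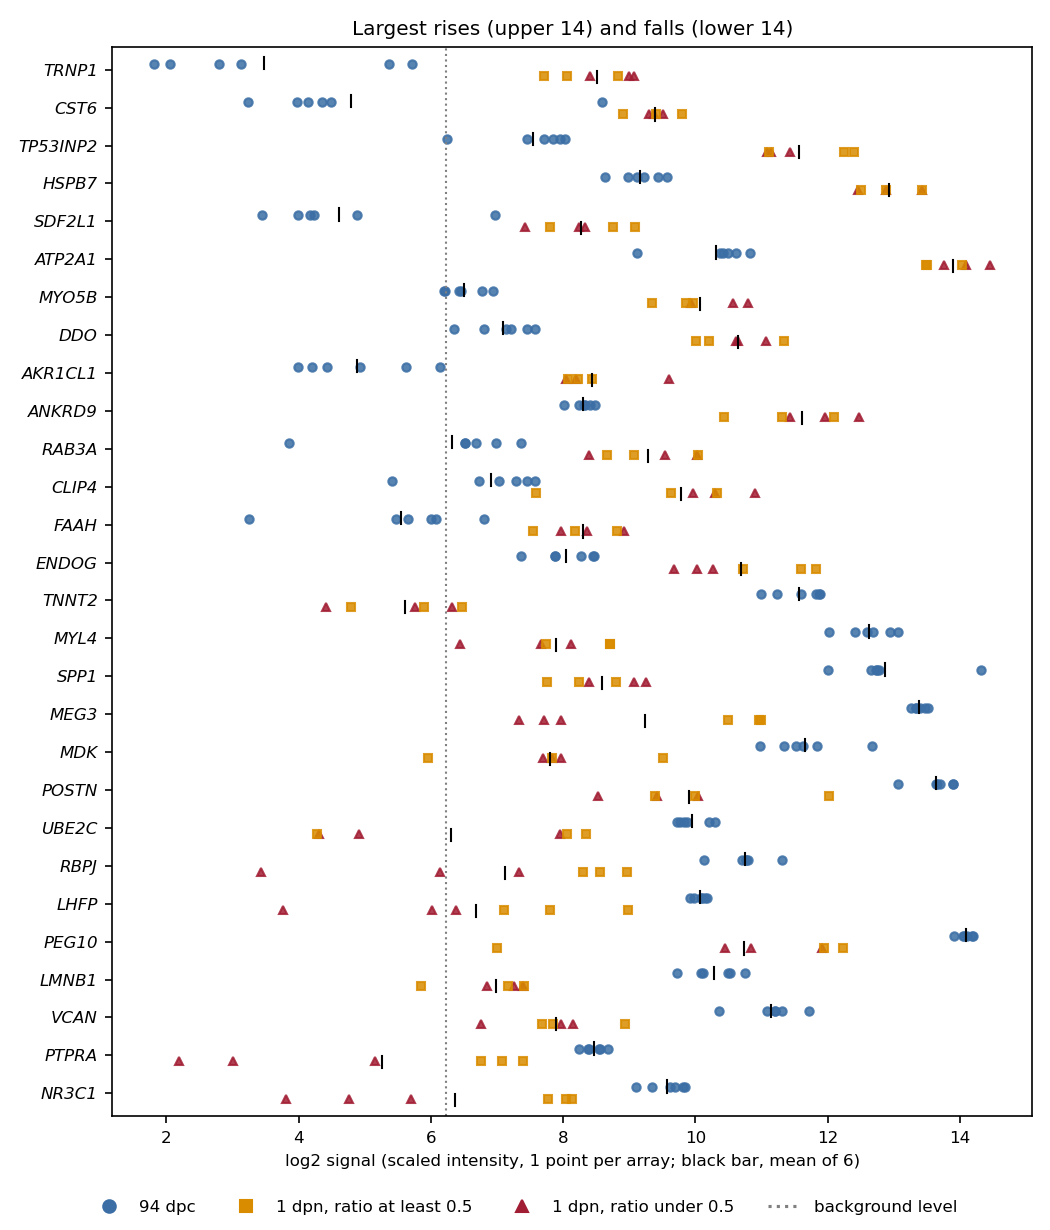
Each point is 1 array on a log2 axis of scaled intensity: fetuses (blue), low-ratio newborns (red triangles) and the other newborns (orange squares), with a black bar at the mean of 6 and the background level dotted. The stages do not overlap for any of the 14 rises and 14 falls, and for NR3C1, RBPJ and PTPRA the low-ratio newborns lie below the other newborns.

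Fetal and cardiac contractile isoforms did not fall as a group. Of the fetal, perinatal and cardiac isoforms 2 of 6 fell and none rose, with 1 higher at an unadjusted p (0 and 2, 1 and 2, 0 and 2), and both that fell, TNNT2 and MYL4, are described above. The list median was -0.041 (-0.26 and 0.596). TNNI1, the slow troponin I that is abundant in fetal muscle, stood at 18594 and 23067 and did not pass as deposited (0.31 ± 0.201, -0.31 and 0.75), although it passed without the low-ratio arrays.

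Many adult contractile isoforms were higher at 1 dpn in the deposited values. 9 of 17 rose and 2 fell (3 and 4, 11 and 1, 3 and 1), with a list median of 0.596 (-0.074 and 0.598), so the sign of the median turned with quantile normalization. MYL3, the slow and ventricular myosin light chain, rose from 4853 to 21491 (2.15 ± 0.24, 1.69 and 2.52). TNNT1, the slow troponin T, rose from 18774 to 40273 (1.101 ± 0.15, 0.41 and 1.21), and MYH7, the slow myosin heavy chain, rose from 23969 to 48698 (1.02 ± 0.14, 0.401 and 1.02). These 3 passed in all 3 fits without overlap. The brightest member, MYL1, a light chain of fast fibres, rose from 43476 to 65712 as deposited, but its difference was 0.596 ± 0.12, -0.074 and 0.598, which is slightly below 0 after quantile normalization. TPM3, the slow tropomyosin, went the other way and fell from 3587 to 2063 (-0.798 ± 0.21, -1.02 and -0.78) in all 3 fits. MYBPC1, the slow myosin-binding protein C, fell from 25436 to 10225 (-1.31 ± 0.34, -1.78 and -0.303) but did not pass without the low-ratio arrays (adjusted p = 0.29).

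Genes of the Z-disc and the sarcomere scaffold rose in part. 10 of 21 rose and none fell, with 1 lower at an unadjusted p (4 and 2, 11 and 0, 4 and 0), and the list median was 0.67 (0.23 and 0.89). FHL3, a LIM domain protein of the Z-disc and nucleus, rose from 1155 to 2639 (1.19 ± 0.26, 1.26 and 1.72), TMOD4, which caps thin filaments, rose from 3249.8 to 7412 (1.19 ± 0.27, 0.94 and 1.66), and FHL1, a LIM domain protein of muscle and the brightest member, rose from 30545 to 59513 (0.96 ± 0.13, 0.45 and 1.05). All 3 passed in all 3 fits, and the arrays overlapped for TMOD4. TCAP, the titin cap protein of the Z-disc, rose from 11349 to 25556 (1.17 ± 0.21, 0.48 and 1.58) but missed the threshold after quantile normalization (adjusted p = 0.063).

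Among genes of excitation and calcium handling 4 of 9 rose and 1 fell (3 and 2, 4 and 0, 2 and 0), with a list median of 0.32 (0.22 and 0.56). Beside ATP2A1, HRC, a calcium-binding protein of the sarcoplasmic reticulum, rose from 377 to 661 (0.81 ± 0.22, 1.15 and 0.65) in all 3 fits, with overlapping arrays. ATP2A2, the calcium pump of slow fibres and heart, rose from 16266 to 26782 (0.72 ± 0.15, 0.01 and 0.6) as deposited, and its difference was near 0 after quantile normalization. CASQ2, the cardiac and slow form of the calcium store protein calsequestrin, fell from 2210.1 to 507 (-2.12 ± 0.53, -2.16 and -1.13) but did not pass without the low-ratio arrays (adjusted p = 0.15). Only 5 genes of the dystrophin complex and membrane repair were measured, of which 1 of 5 rose and 1 fell (1 and 1, 0 and 1, 0 and 1), with a median of -0.68 (-0.34 and -0.23). SNTB1, a syntrophin that binds dystrophin, fell from 935 to 366 (-1.35 ± 0.29, -1.14 and -1.28) in all 3 fits, with overlapping arrays. The falls numbered 2 without newborn 4 and 3 without newborn 5 or 6. The single rise, of the sarcoglycan SGCD, was lost when newborn 2, 3 or 5 or fetus 5 was left out.

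Regulators of muscle formation fell more often than they rose. 2 of 19 rose and 10 fell (2 and 9, 1 and 7, 1 and 6), and the list median was -0.58 (-0.53 and -0.65). MSTN, the growth factor myostatin that restrains muscle growth, measured 74.7, 257 and 388 at 94 dpc and 7.87, 43.1 and 56.9 at 1 dpn. It fell from 223 to 30.1 (at least 2.99-fold, adjusted p = 5.0e-05), with every newborn below every fetus. MYF5, a transcription factor of myoblasts, fell from 611 to 199 (-1.62 ± 0.41, -1.36 and -2.41), and MSC, the repressor musculin, fell from 632 to 218 (-1.54 ± 0.23, -1.23 and -1.92). All 3 calls held in all 3 fits, and the arrays overlapped for MYF5. NFIC, a factor of the nuclear factor I family and the brightest member, rose from 3599.8 to 10194 (1.502 ± 0.27, 1.22 and 0.75) in all 3 fits with overlapping arrays, but its 2 probe sets went opposite ways. MEF2D, a factor that drives muscle genes, rose from 2673 to 4412 (0.72 ± 0.17, 0.52 and 0.46) but did not pass without the low-ratio arrays (adjusted p = 0.067). Of the 2 measured genes of the acetylcholine receptor and neuromuscular junction, CHRNA1 and ETV5, none passed as deposited in limma (0 and 0, 0 and 1, 0 and 0). At an unadjusted p under 0.05 in limma 2 were lower, and their median was -0.903 (-0.71 and -1.103). Both fell when newborn 2 or 3 was left out, and 1 fell without newborn 6 or fetus 2.

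In the insulin-like growth factor axis 1 of 15 rose and 4 fell (1 and 4, 2 and 1, 1 and 1), and the list median was -0.051 (0.204 and -0.36). GHR, the growth hormone receptor, measured 253, 412 and 592 at 94 dpc and 13.3, 48.1 and 225 at 1 dpn. It fell from 401 to 51.7 (at least 5.37-fold, adjusted p = 1.8e-04) in all 3 fits without overlap, with 18.1 in the low-ratio newborns and 148 in the others. IGF2, the fetal growth factor and an imprinted gene, fell from 11018 to 4545 (-1.28 ± 0.37, -1.82 and -1.23), IGF1, its postnatal counterpart, fell from 327 to 133 (-1.299 ± 0.34, -0.96 and -0.56), and IGFBP2, a binding protein of both, fell from 579.7 to 121 (-2.26 ± 0.66, -1.94 and -0.996). None of these 3 passed without the low-ratio arrays, where the adjusted p was 0.054, 0.098 and 0.31. GRB10, an adaptor of the imprinted list that dampens insulin and growth factor signals, rose from 1076 to 3552 (1.72 ± 0.29, 1.83 and 1.31) in all 3 fits without overlap.

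Imprinted genes, many of which act on fetal growth, fell more often than they rose: 2 of 17 rose and 8 fell (3 and 7, 1 and 7, 1 and 6), with a list median of -0.54 (-0.29 and -0.75). PEG3, a zinc finger protein expressed from the paternal allele, fell from 578 to 92.0 (-2.65 ± 0.38, -2.38 and -2.02), and with MEG3 and PEG10 it passed in all 3 fits without overlap. GRB10, described above, was 1 of the 2 that rose and the only 1 that rose in all 3 fits.

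Some growth factor genes fell. Of the TGF beta, BMP, FGF and PDGF genes 1 of 18 rose and 7 fell (0 and 4, 0 and 5, 0 and 4), with a list median of -0.69 (-0.38 and -0.55). The single rise, of the PDGF receptor PDGFRB, did not hold in either of the other fits and was lost when any of 7 animals was left out. PTN, the growth factor pleiotrophin that is related to midkine, fell from 1308 to 265 (-2.301 ± 0.38, -2.18 and -1.58), and TGFBR1, a receptor of TGF beta, fell from 778 to 316 (-1.3 ± 0.28, -1.09 and -1.64) with overlapping arrays. Of the Wnt, Notch and Hedgehog genes 2 of 11 fell and none rose, with 0 higher at an unadjusted p (0 and 2, 0 and 4, 0 and 1), a share of falls below that of all genes (18.2% against 20.7%), with a list median of -0.37 (-0.22 and -0.58). JAG1, a ligand of Notch, fell from 1705 to 1115 (-0.61 ± 0.17, -0.601 and -0.57) without overlap. All 3 genes passed in all 3 fits.

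**Figure D3:**
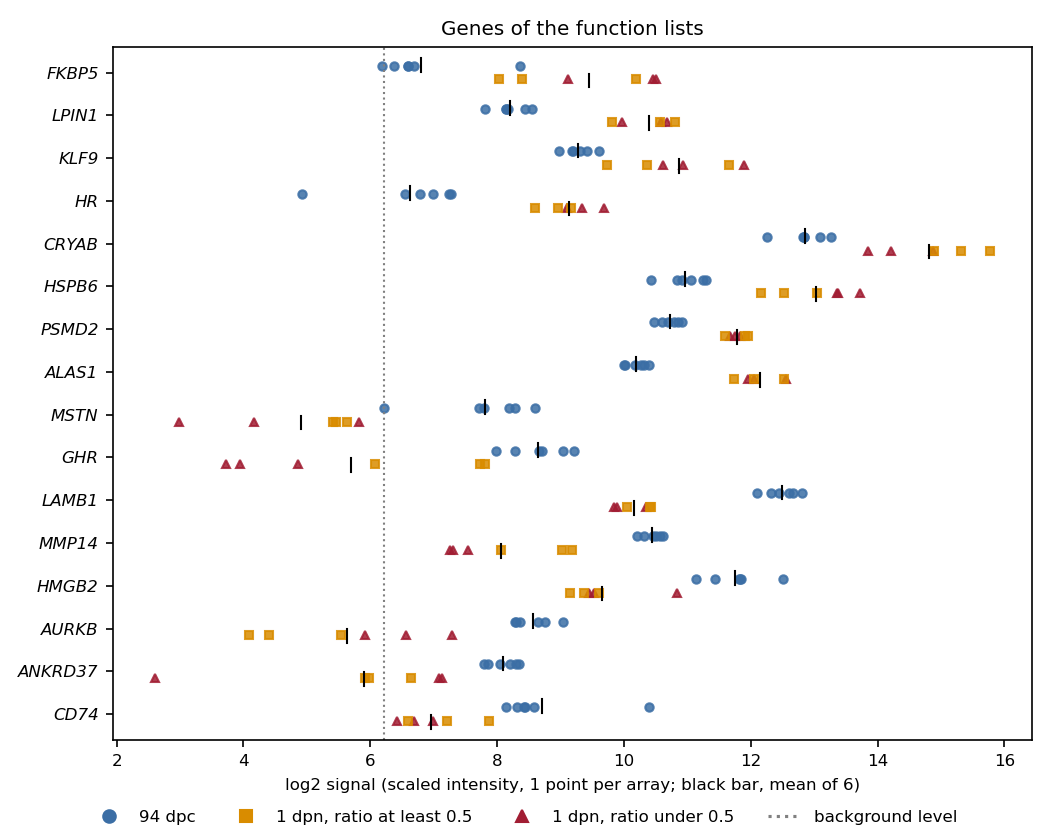
Points give the log2 signal of each array for 16 genes of the function lists, with symbols, mean bars and the dotted background level as in the plot of the largest rises and falls. The upper 8 genes rose and the lower 8 fell in all 3 fits, and the arrays of FKBP5 overlap between the stages because of fetus 5.

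Many genes of the extracellular matrix fell. Of the matricellular proteins, proteoglycans and elastic fibre genes 2 of 28 rose and 13 fell (1 and 15, 1 and 12, 1 and 11), of which 9 fell without overlap of the arrays, and the list median was -0.79 (-0.88 and -0.75). LAMB1, the beta 1 chain of laminin in the basement membrane, measured 4397, 5909 and 7176 at 94 dpc and 922, 1182 and 1371 at 1 dpn. It fell from 5760.2 to 1146 (-2.33 ± 0.16, -2.64 and -2.196), and the brightest newborn lay below the dimmest fetus. SPP1, POSTN and VCAN, described above, belong to the same list. MGP, the matrix Gla protein that restrains calcification, rose from 19780.3 to 41382 (1.06 ± 0.16, 0.38 and 1.09) in all 3 fits without overlap. SPARC, a matrix protein that binds collagen and the brightest member, rose from 35769 to 55321 (0.63 ± 0.15, -0.053 and 0.44) as deposited, but the sign turned after quantile normalization and it missed the threshold without the low-ratio arrays (adjusted p = 0.06).

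Collagen chains fell in part. 5 of 12 fell and none rose, with 1 higher at an unadjusted p (0 and 6, 0 and 3, 0 and 3), with a list median of -0.52 (-0.49 and -0.43). COL1A2, a chain of type I collagen, fell from 4418 to 1307 (-1.76 ± 0.35, -2.001 and -1.21), and COL15A1, of a collagen near basement membranes, fell from 9352 to 4318 (-1.11 ± 0.2, -1.61 and -1.41), both in all 3 fits, the latter without overlap. COL5A2, a chain of type V collagen, fell from 346 to 59.2 (at least 4.63-fold, adjusted p = 0.0025) but missed the threshold without the low-ratio arrays (adjusted p = 0.072). The brightest chain, COL6A3 of type VI collagen, stood at 16857 and 15796 (-0.094 ± 0.23, -0.71 and 0.17) and passed only after quantile normalization. Among collagen processing enzymes 1 of 11 fell and none rose, with 0 higher at an unadjusted p (0 and 2, 0 and 2, 0 and 1), with a median of -0.27 (-0.11 and -0.198) that was 0.053 after median centring, and the 1 that fell, P4HA2, a prolyl hydroxylase of collagen, fell from 1969 to 1318 (-0.58 ± 0.15, -0.61 and -0.55) in all 3 fits.

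Many proteases of the matrix and their inhibitors fell as well: 7 of 13 fell and none rose, with 0 higher at an unadjusted p (0 and 5, 0 and 4, 0 and 4), with a list median of -0.79 (-0.68 and -0.67). MMP14, a membrane-bound protease that activates other matrix proteases, measured 1185, 1426 and 1567 at 94 dpc and 153, 227 and 579 at 1 dpn. It fell from 1394 to 267 (-2.38 ± 0.32, -2.26 and -1.69) without overlap. SERPINE2, an inhibitor of serine proteases, fell from 681 to 190.3 (-1.84 ± 0.22, -1.55 and -1.65), also without overlap, and CTSK, a collagen-degrading cathepsin, fell from 3379 to 1771 (-0.93 ± 0.23, -1.12 and -0.67) with overlapping arrays. All 3 passed in all 3 fits. Beside these falls, of the fibroblast markers 2 of 9 fell and none rose, with 0 higher at an unadjusted p (0 and 3, 0 and 3, 0 and 2). Their summed signal was 40027 to 47121 at 94 dpc and 22096 to 57079.5 at 1 dpn. Newborn 6 had the highest sum of these and of the cartilage and tendon markers. The part of the number of fibroblasts, or of cartilage and tendon in the samples, in the matrix results was not tested.

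Cytoskeletal genes outside the sarcomere fell in part. 2 of 21 rose and 8 fell (1 and 13, 2 and 7, 1 and 6), with a list median of -0.31 (-0.68 and -0.39) that was 0.017 after median centring. STMN1, which destabilises microtubules in dividing cells, fell from 9836 to 2013 (-2.29 ± 0.18, -2.76 and -2.41), CNN3, an actin-binding calponin, fell from 8657 to 2140.3 (-2.02 ± 0.24, -2.46 and -1.62), and MARCKS, a membrane substrate of protein kinase C, fell from 12151 to 3696 (-1.72 ± 0.22, -2.25 and -2.16). Each of the 3 passed in all 3 fits without overlap. The cytoplasmic actins went the other way, although their near-identical sequences may not be told apart by the probes. ACTB, beta actin, rose from 7073 to 19283 (1.45 ± 0.29, 0.91 and 0.65) in all 3 fits but did not pass with quantile normalization and no low-ratio arrays together (0.15, adjusted p = 0.62), and ACTG1, gamma actin, rose from 34553 to 54605 (0.66 ± 0.14, 0.0067 and 0.55) as deposited, with a difference near 0 after quantile normalization.

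Most genes of cell division fell. Of the mitosis genes 14 of 21 fell and none rose, with 1 higher at an unadjusted p (1 and 14, 0 and 15, 0 and 13), and 12 of them fell without overlap of the arrays. The list median was -2.02 (-1.71 and -2.09), the lowest of the 37 lists in the deposited values. AURKB, a kinase of chromosome segregation, measured 311, 365 and 526 at 94 dpc and 16.9, 53.4 and 157 at 1 dpn. It fell from 379 to 49.6 (at least 5.07-fold, adjusted p = 6.3e-04) in all 3 fits without overlap. SKA1, which holds microtubules at kinetochores, fell from 98.9 to 7.11 (at least 1.32-fold, adjusted p = 3.2e-05), a bound close to 1 because the fetal level was itself near background. DNA replication genes followed: 9 of 15 fell and none rose, with 0 higher at an unadjusted p (0 and 6, 0 and 10, 0 and 6), with a list median of -0.86 (-0.52 and -1.07). PCNA, the clamp of DNA polymerases, measured 1313, 1789 and 2203 at 94 dpc and 484, 569 and 736 at 1 dpn. It fell from 1734 to 580.4 (-1.58 ± 0.19, -1.56 and -1.48) without overlap, RFC3, part of the complex that loads this clamp, fell from 579.6 to 197 (-1.55 ± 0.18, -1.24 and -1.49), and TYMS, the thymidylate synthase, fell from 206 to 23.0 (at least 2.76-fold, adjusted p = 4.6e-04). All 3 passed in all 3 fits.

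Many chromatin regulators fell as well. Of the genes for DNA methylation, Polycomb and chromatin regulation 10 of 18 fell and none rose, with 1 higher at an unadjusted p (0 and 9, 0 and 10, 0 and 8), with a list median of -0.76 (-0.64 and -0.72). HMGB2, a DNA-bending protein of dividing cells, measured 2254, 3613 and 5817 at 94 dpc and 568, 717 and 1832 at 1 dpn, the highest newborn being newborn 1. It fell from 3466 to 806 (-2.104 ± 0.29, -2.29 and -2.38) without overlap. EZH2, the histone methyltransferase of Polycomb, fell from 328 to 64.2 (at least 4.39-fold, adjusted p = 0.0029), CBX3, a heterochromatin protein, fell from 1527 to 624 (-1.29 ± 0.21, -1.25 and -1.43), and HMGN2, a nucleosome-binding protein and the brightest member, fell from 21721 to 12648 (-0.78 ± 0.15, -1.3 and -0.89). All 4 passed in all 3 fits, and only CBX3 of them had overlapping arrays. Cell cycle brakes and p53 targets did not rise while division genes fell: 6 of 16 fell and none rose, with 0 higher at an unadjusted p (0 and 6, 1 and 4, 0 and 3), with a list median of -0.38 (-0.23 and -0.49). BTG1, which restrains proliferation, fell from 7674 to 2529 (-1.601 ± 0.24, -2.01 and -1.402), and CCNG2, a cyclin associated with cell cycle arrest, fell from 1206 to 443 (-1.45 ± 0.3, -1.32 and -1.96), both in all 3 fits without overlap.

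Splicing factors were lower at 1 dpn more often than higher. 3 of 36 rose and 13 fell (1 and 18, 3 and 13, 0 and 10), with a list median of -0.29 (-0.45 and -0.25) that was 0.034 after median centring, so the sign of the median depended on the scaling. SF3B1, which recognises the branch point, measured 1438, 2730.3 and 3666 at 94 dpc and 612, 879.7 and 1408 at 1 dpn. It fell from 2651 to 891 (-1.57 ± 0.22, -1.699 and -1.305) without overlap. HNRNPU, a scaffold of nuclear RNA, fell from 453 to 149 (-1.61 ± 0.23, -1.295 and -1.21), and HNRNPA3, an RNA-binding protein, fell from 1332 to 473 (-1.49 ± 0.31, -1.43 and -1.302) with overlapping arrays. All 3 passed in all 3 fits. HNRNPK, the brightest member, stood at 9253 and 7301 (-0.34 ± 0.15, -0.86 and -0.51), did not pass as deposited and passed in the other fits.

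Translation factors changed in both directions. 10 of 27 rose and 5 fell (4 and 7, 8 and 4, 3 and 4), with a list median of 0.065 (-0.021 and 0.22). The count of rises went from 10 to 6 without fetus 5. EIF1, which guards the choice of the start codon and is the brightest member, rose from 21284 to 44844 (1.08 ± 0.14, 0.42 and 1.07), and EIF5A, which helps the ribosome at difficult sequences, rose from 6321 to 13212 (1.06 ± 0.13, 0.63 and 1.08). EIF3E, a subunit of the initiation scaffold, fell from 9312 to 4435 (-1.07 ± 0.15, -1.56 and -1.15), and EIF4A2, an RNA helicase of initiation, fell from 17809.7 to 8649.9 (-1.04 ± 0.201, -1.59 and -0.49). These 4 passed in all 3 fits without overlap.

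Most proteasome subunits rose. 22 of 33 rose and none fell, with 1 lower at an unadjusted p (16 and 1, 25 and 0, 16 and 0), and 16 rose without overlap of the arrays. The list median of 0.77 (0.43 and 0.85) was the highest of the 37 lists in the deposited values only. After quantile normalization the list of ion pumps and amino acid transporters was higher (0.72). Without the low-ratio arrays the thyroid hormone (0.98) and Z-disc lists (0.89) were higher. PSMD2, a subunit of the regulatory particle, measured 1429.5, 1715 and 1924 at 94 dpc and 3094, 3535 and 3995 at 1 dpn. It rose from 1686 to 3530.3 (1.07 ± 0.13, 1.02 and 1.105), and no newborn overlapped a fetus. PSMA7, of the outer rings of the core and the brightest member, rose from 13315 to 34984 (1.39 ± 0.18, 0.62 and 1.001) but did not pass with quantile normalization and no low-ratio arrays together (0.23, adjusted p = 0.34), PSMB4, of the inner rings, rose from 7552 to 15848 (1.07 ± 0.15, 0.54 and 1.21), and PSMB3, also of the inner rings, rose from 1465 to 3382 (1.21 ± 0.27, 1.24 and 1.91). All 4 passed in all 3 fits, and only PSMB3 of them had overlapping arrays.

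Ubiquitin ligases of muscle atrophy did not move as a group. Of the atrophy ligases, FOXO factors and ubiquitin genes 3 of 10 rose and 1 fell (2 and 0, 0 and 2, 0 and 0), and the median was 0.15 (-0.069 and 0.403). FBXO31, a substrate receptor of a ubiquitin ligase, rose from 1045 to 2379.7 (1.19 ± 0.27, 1.32 and 0.62) but missed the threshold without the low-ratio arrays (adjusted p = 0.077). UBB, a polyubiquitin gene and the brightest member, rose from 40202 to 58045 (0.53 ± 0.13, -0.16 and 0.39) as deposited, its sign turned after quantile normalization, and it missed the threshold without the low-ratio arrays (adjusted p = 0.054).

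Autophagy and lysosome genes changed both ways. 7 of 23 rose and 4 fell (7 and 6, 4 and 4, 2 and 4), with a list median of 0.18 (0.21 and 0.068), and the count of rises fell from 7 to 4 without newborn 1 and to 3 without newborn 6. SQSTM1, the receptor that brings ubiquitinated cargo to autophagosomes, rose from 2901 to 7789 (1.42 ± 0.27, 1.196 and 0.82). BNIP3L, a receptor for the removal of mitochondria, fell from 1051 to 285 (-1.88 ± 0.26, -1.74 and -1.82), and ATG12, a ubiquitin-like protein of autophagosome formation, fell from 916 to 436 (-1.07 ± 0.15, -0.86 and -1.32). With TP53INP2 these passed in all 3 fits without overlap. GABARAP, the brightest member and a protein of the autophagosome membrane, stood at 17843 and 18113 (0.022 ± 0.14, -0.55 and 0.068), with no call as deposited and a fall after quantile normalization.

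**Figure D4:**
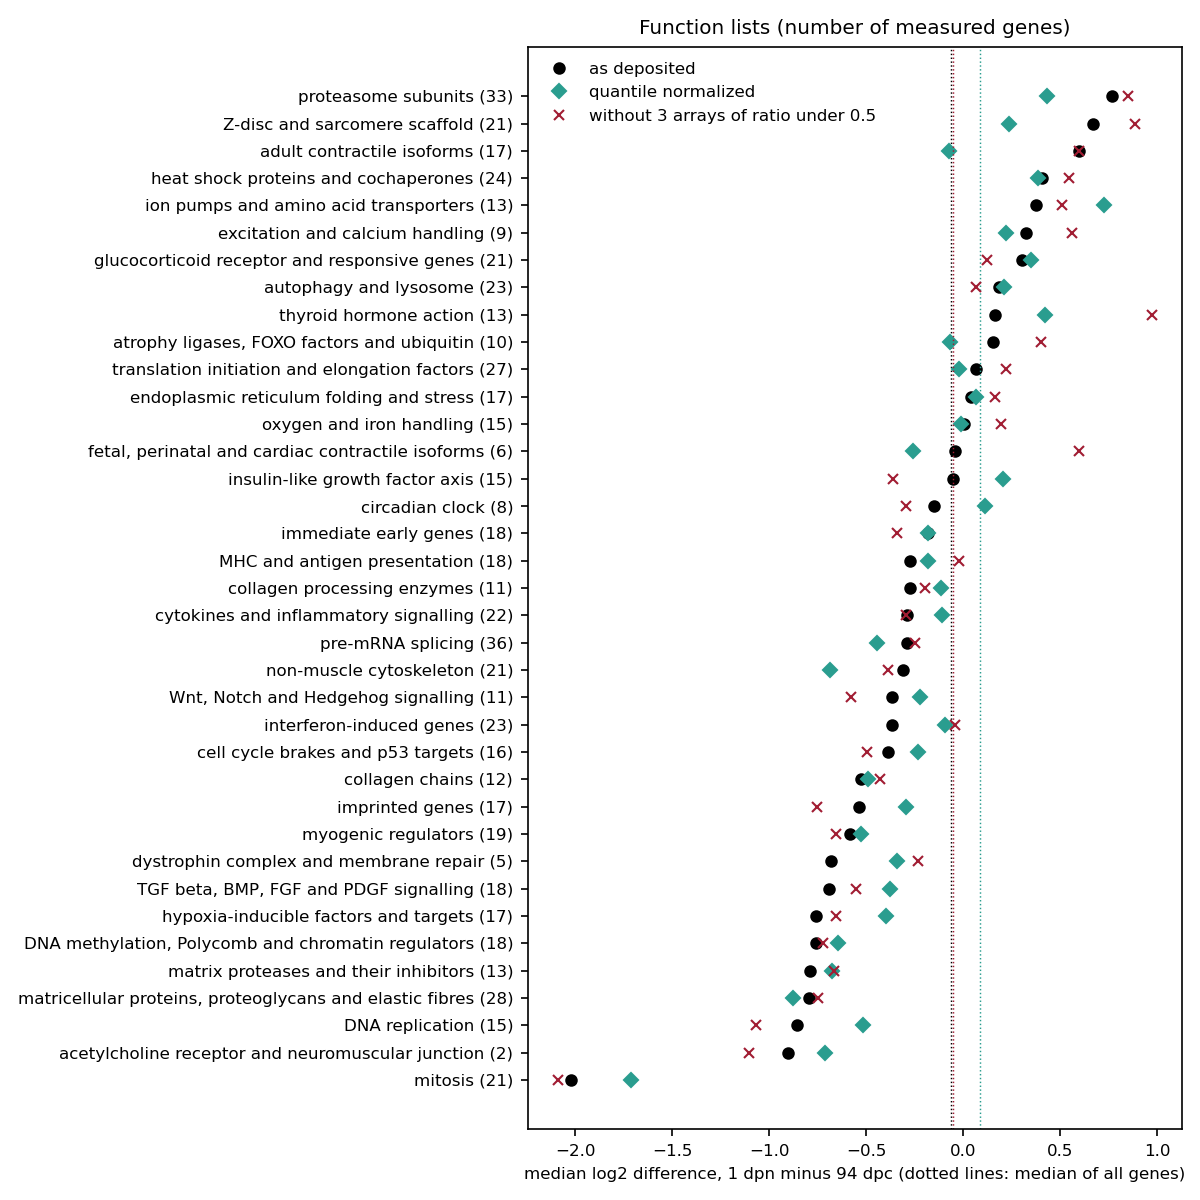
Each row is 1 function list with its number of measured genes, and the symbols give the median log2 difference, 1 dpn minus 94 dpc, as deposited (black), after quantile normalization (green) and without the low-ratio arrays (crosses). Dotted lines mark the median of all genes in each fit. In the deposited values mitosis (-2.02) and proteasome subunits (0.77) stand at the ends, and in the other fits other lists lie above the proteasome subunits.

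Many heat shock proteins rose, among them small heat shock proteins of muscle. Of the heat shock proteins and cochaperones 13 of 24 rose and 2 fell (10 and 2, 12 and 1, 8 and 0), with a list median of 0.41 (0.39 and 0.55). CRYAB, the small heat shock protein alpha B-crystallin that protects the Z-disc, measured 4875, 7362 and 9799 at 94 dpc and 14736, 30180.4 and 56128 at 1 dpn. It rose from 7400.4 to 28891 (1.97 ± 0.26, 1.41 and 2.48) with no overlap. HSPB6, a small heat shock protein of muscle, rose from 1999 to 8382 (2.07 ± 0.24, 1.97 and 1.61), and BAG3, the cochaperone that works with small heat shock proteins, rose from 1985 to 5805 (1.55 ± 0.14, 1.43 and 1.403), both without overlap. With HSPB7 these passed in all 3 fits. HSPA8, the constitutive chaperone of the HSP70 family and the brightest member, rose from 11626 to 20066 (0.79 ± 0.14, 0.14 and 0.73) as deposited and did not pass after quantile normalization (adjusted p = 0.52). DNAJA1, a cochaperone of HSP70, fell from 2353 to 1124 (-1.07 ± 0.25, -1.17 and -0.69) but missed the threshold without the low-ratio arrays (adjusted p = 0.082). The number of falls in this list was 4 without newborn 2 and 4 without fetus 4.

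Folding and stress genes of the endoplasmic reticulum showed no common direction. 4 of 17 rose and 2 fell (4 and 3, 4 and 2, 3 and 2), with a list median of 0.041 (0.065 and 0.16). DDIT3, the stress-induced factor CHOP, rose from 439 to 1029 (1.23 ± 0.33, 1.53 and 1.29), and PPP1R15A, which restores translation after stress, fell from 507 to 122 (-2.06 ± 0.44, -1.79 and -1.86). PDIA3, a disulfide isomerase, fell from 2284 to 1408 (-0.698 ± 0.18, -0.802 and -0.58). These 3 and SDF2L1 passed in all 3 fits, and the arrays of DDIT3 and PPP1R15A overlapped. HSPA5, the main chaperone of this compartment and the brightest member, stood at 7695 and 8179 (0.088 ± 0.17, -0.39 and 0.204) and did not pass.

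Many genes responsive to glucocorticoids rose while the probe set used for their receptor fell. 10 of 21 rose and 1 fell (7 and 2, 7 and 2, 6 and 1), with a list median of 0.31 (0.35 and 0.12). FKBP5, a cochaperone of the receptor that glucocorticoids induce, measured 72.9, 96.3 and 329 at 94 dpc and 263, 859 and 1451 at 1 dpn, with fetus 5 the highest fetus. It rose from 111 to 699 (2.65 ± 0.44, 2.88 and 2.07), by 2.96 without fetus 5, and the arrays overlapped only through that fetus. LPIN1, a phosphatidate phosphatase and coactivator, measured 224, 284 and 376 at 94 dpc and 897, 1524 and 1789.9 at 1 dpn. It rose from 296 to 1352 (2.19 ± 0.201, 2.51 and 2.19) without overlap. CEBPB, a transcription factor of the acute response, rose from 1295 to 4532 (1.81 ± 0.31, 1.86 and 1.59) with overlapping arrays. These 3 passed in all 3 fits. TXNIP, an inhibitor of thioredoxin and the brightest member, rose from 18932 to 38942 (1.04 ± 0.18, 0.35 and 0.86) but did not pass after quantile normalization (adjusted p = 0.16). NR3C1, described with the largest falls, is the member that went against the list.

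Of the genes of thyroid hormone action 3 of 13 rose and 1 fell (3 and 2, 4 and 2, 3 and 1), with a list median of 0.16 (0.42 and 0.98), and 4 lay under background at both stages. HR, the corepressor hairless that thyroid hormone induces, measured 30.4, 118 and 155 at 94 dpc and 387, 560.4 and 819 at 1 dpn. It rose from 98.8 to 563 (2.51 ± 0.296, 2.79 and 2.28) without overlap. KLF9, a transcription factor induced by thyroid hormone and by glucocorticoids, measured 504, 609 and 778 at 94 dpc and 856, 1757 and 3809 at 1 dpn. It rose from 621 to 1867 (1.59 ± 0.27, 1.82 and 1.31), also without overlap. NCOA1, a coactivator of nuclear receptors, fell from 1783 to 771 (-1.21 ± 0.15, -1.202 and -1.11) without overlap. All 3 calls held in all 3 fits.

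Circadian clock genes gave no stable call: 1 of 8 rose and 2 fell (1 and 1, 0 and 0, 0 and 0), and the median was -0.15 (0.11 and -0.29). The 1 rise, of the clock repressor PER1, was lost when any of 8 animals was left out, and the falls went from 2 to 1 in 8 of the leave-outs. BHLHE40, a repressor in the clock that is also induced by hypoxia, fell from 237 to 69.0 (at least 3.18-fold, adjusted p = 0.0019) as deposited and missed the threshold without the low-ratio arrays (adjusted p = 0.067).

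Immediate early genes, which respond to stimuli within minutes to hours, fell or did not pass. 5 of 18 fell and none rose, with 0 higher at an unadjusted p (0 and 6, 0 and 4, 0 and 3), and the list median was -0.18 (-0.18 and -0.34). FOS, part of the AP-1 transcription factor, measured 697, 1787 and 3899 at 94 dpc and 256, 450.0 and 1348 at 1 dpn, with newborn 1 the highest newborn. It fell from 1703 to 451 (-1.92 ± 0.595, -1.88 and -2.19). KLF4, a transcription factor of differentiation and stress, fell from 1118 to 329.6 (-1.76 ± 0.37, -1.59 and -1.55), and EGR1, an early growth response factor, fell from 1945 to 583 (-1.74 ± 0.44, -1.73 and -2.05). Each of the 3 passed in all 3 fits, though the arrays of each overlapped. MYC, a driver of growth and division, fell from 1030.0 to 409 (-1.33 ± 0.41, -1.17 and -0.42) but did not pass without the low-ratio arrays (adjusted p = 0.31). DUSP1, the brightest member and a phosphatase of stress kinases, stood at 5012 and 3515 (-0.51 ± 0.24, -0.84 and -0.51) and passed only after quantile normalization.

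Targets of hypoxia-inducible factors fell in part. 9 of 17 fell and none rose, with 2 higher at an unadjusted p (2 and 6, 1 and 6, 0 and 5), with a list median of -0.76 (-0.396 and -0.65). ANKRD37, a small ankyrin repeat protein induced by hypoxia, measured 221, 279 and 326 at 94 dpc and 6.08, 81.7 and 140.0 at 1 dpn, with newborn 3 the lowest. It fell from 273 to 59.5 (at least 3.65-fold, adjusted p = 0.0019) without overlap. SLC2A3, a high-affinity glucose transporter, fell from 924 to 247 (-1.91 ± 0.32, -1.71 and -1.56), and CA12, a membrane carbonic anhydrase, fell from 424 to 148 (-1.52 ± 0.24, -1.201 and -1.27), both without overlap. These 3 passed in all 3 fits. VEGFA, the vascular growth factor and the brightest member, stood at 2493 and 2485 (-0.0046 ± 0.15, -0.14 and -0.25) and did not pass. Beside these falls, of the endothelial markers 6 of 13 fell and none rose, with 1 higher at an unadjusted p (1 and 5, 1 and 5, 0 and 5). Their summed signal was 9218 to 15931 at 94 dpc, with fetus 5 the lowest, and 5247 to 9306 at 1 dpn. Without fetus 5 the fetal range began at 12980.3, above every newborn, and the part of the number of endothelial cells in the hypoxia and growth factor results was not tested.

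Few interferon-induced genes passed: 1 of 23 rose and 1 fell (1 and 1, 1 and 0, 1 and 0), with a list median of -0.37 (-0.094 and -0.044). Fetus 5 had a summed signal of 63004 for this list, against 3494 to 11426 in the other fetuses. At 1 dpn the sum was 4643 to 18515. The few calls therefore do not show that these genes were quiet in every animal. PSMB10, a subunit of the immunoproteasome, rose from 726 to 1397 (0.94 ± 0.24, 1.17 and 0.84) in all 3 fits, with overlapping arrays. DDX58, the sensor RIG-I of viral RNA, fell from 198 to 41.0 (at least 2.65-fold, adjusted p = 0.022) and missed the threshold without the low-ratio arrays (adjusted p = 0.072) and without fetus 5 (adjusted p = 0.066). Without fetus 5 the list had 3 rises and 0 falls, and without fetus 4 it had 2 falls.

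Some MHC and antigen presentation genes fell as deposited, and 1 of these falls passed in all 3 fits. 1 of 18 rose and 6 fell (0 and 6, 0 and 1, 0 and 1), with a list median of -0.27 (-0.18 and -0.021) that was 0.053 after median centring. CD74, the chaperone of MHC class II molecules, measured 281, 345 and 1339.9 at 94 dpc and 85.8, 115 and 233 at 1 dpn. It fell from 419.8 to 125 (-1.75 ± 0.33, -1.46 and -1.49) in all 3 fits, and without fetus 5 it fell by 1.42 on the log2 scale, and every newborn lay below every fetus. SLA-DRA, a class II chain, measured 1259, 1646 and 7988 at 94 dpc and 306, 526 and 2386 at 1 dpn, with fetus 5 the highest. It fell from 2019 to 672 (-1.59 ± 0.46, -1.62 and -0.64), SLA-DQA1, a further class II chain, fell from 1813 to 564 (-1.68 ± 0.398, -1.67 and -0.77), and SLA-DRB1, the partner of SLA-DRA, fell from 2104 to 800.4 (-1.39 ± 0.397, -1.45 and -0.53). These 3 overlapped between the stages and did not pass without the low-ratio arrays, where the adjusted p was 0.36, 0.14 and 0.35. Without fetus 5 they fell by 1.19, 1.37 and 1.08 on the log2 scale. The macrophage marker sum, given above for the fetuses, was 1831 to 5971 at 1 dpn, and its part in these results was not tested. B2M, the light chain of class I molecules and the brightest member, rose from 33154 to 45345 (0.45 ± 0.14, -0.22 and 0.22) as deposited, passed in neither of the other fits and fell by 0.43 on the log2 scale with quantile normalization and no low-ratio arrays (adjusted p = 0.024).

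Cytokines and inflammatory signalling genes rarely passed. 3 of 22 fell and none rose, with 2 higher at an unadjusted p (2 and 2, 0 and 2, 0 and 2), with 8 under background at both stages and a median of -0.29 (-0.11 and -0.29) that was 0.034 after median centring. IL18, a cytokine released by the inflammasome, fell from 730.0 to 214 (-1.77 ± 0.503, -1.504 and -2.2), and CXCL12, a chemokine that guides progenitor cells, fell from 2991 to 1221 (-1.29 ± 0.25, -1.45 and -1.76), both in all 3 fits without overlap. Without fetus 5 1 gene of the list rose.

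Oxygen and iron handling genes rose in a few members. 4 of 15 rose and none fell, with 2 lower at an unadjusted p (3 and 2, 4 and 1, 3 and 0), with a list median of 0.0054 (-0.011 and 0.19), and 2 rose without fetus 5. ALAS1, the rate-limiting enzyme of haem synthesis outside red cells, measured 1023, 1190.4 and 1344 at 94 dpc and 3395, 4244 and 6006 at 1 dpn. It rose from 1171 to 4519.6 (1.95 ± 0.17, 2.02 and 1.91) in all 3 fits without overlap. FTH1, the heavy chain of ferritin and the brightest member, rose from 33062 to 47656 (0.53 ± 0.15, -0.083 and 0.86) as deposited, with the sign turned after quantile normalization.

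Ion pumps, water channels and amino acid transporters rose in 5 members. 5 of 13 rose and 2 fell (6 and 2, 4 and 2, 4 and 2), with a list median of 0.38 (0.72 and 0.51). ATP1B1, the beta 1 subunit of the sodium pump and the brightest member, measured 4371, 5794 and 6472 at 94 dpc and 9592, 18837 and 24694 at 1 dpn. It rose from 5463 to 17791 (1.703 ± 0.23, 1.26 and 1.602) without overlap. AQP1, the water channel aquaporin of vessels, rose from 4524 to 13762 (1.61 ± 0.26, 1.29 and 1.37) without overlap. SLC3A2, the heavy chain shared by amino acid exchangers, rose from 282 to 504 (0.84 ± 0.18, 1.19 and 0.81) with overlapping arrays, while SLC38A1, a sodium-coupled glutamine transporter, fell from 596 to 198 (-1.59 ± 0.398, -1.29 and -2.004) without overlap. These 4 passed in all 3 fits.

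Of the 143 genes given with levels above, 136 passed as deposited, of which 126 also passed in the same direction after quantile normalization and 118 without the low-ratio arrays. The 10 calls lost with quantile normalization were MYL1, TCAP, ATP2A2, SPARC, ACTG1, UBB, HSPA8, TXNIP, B2M and FTH1, all rises of transcripts with a fetal mean of 11349 or more, in the bright part of the scale. The 18 calls lost without the low-ratio arrays included 13 falls and 5 rises, and the other 118 calls did not need these arrays. That fit has 3 newborns in place of 6. Many of the genes given were chosen because they passed in all 3 fits, so their shares are no guide to all genes: of all called genes, 987 of 1158 rises (85.2%) and 977 of 1397 falls (69.9%) passed after quantile normalization, and 868 rises (75.0%) and 971 falls (69.5%) without the low-ratio arrays. With both changes together 28 of the 136 calls were lost, among them 9 of genes that passed in all 3 fits. These were NFIC (0.48), MGP (0.38), ACTB (0.15), EZH2 (-1.602), PSMA7 (0.23), SQSTM1 (0.58), PPP1R15A (-1.59), FOS (-2.12) and CD74 (-1.19), where brackets give the log2 difference under both changes.

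**Figure D5:**
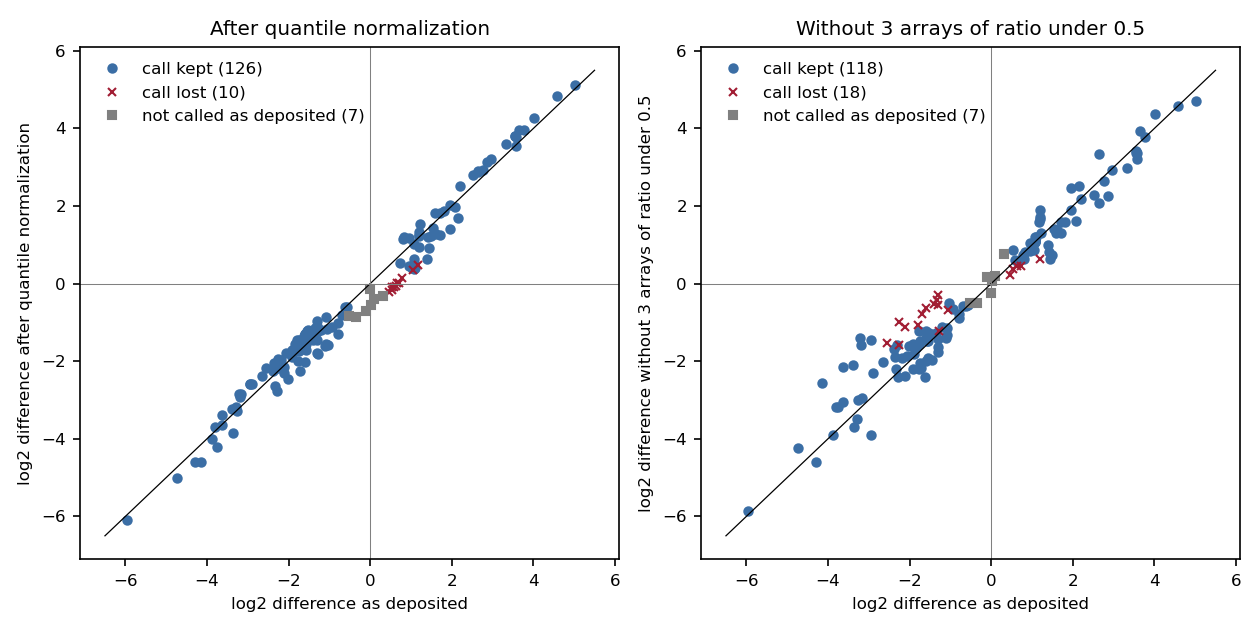
Each point is 1 of the 143 genes given with levels, with its log2 difference as deposited on the horizontal axis and after quantile normalization (left) or without the low-ratio arrays (right) on the vertical axis, and the diagonal marks equal values. Crosses mark the 10 and 18 calls that were lost, and the former are rises of 0.45 (B2M) to 1.17 (TCAP) as deposited.

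For some genes the probe sets of 1 gene did not agree. With the mean of all probe sets in place of the brightest, the call was lost for LHFP (-1.05, adjusted p = 0.084), CASQ2 (-1.67), ATP2A2 (0.25), IGF1 (-0.44), IGF2 (-0.69), JAG1 (-0.3), PTN (-0.64), TGFBR1 (-0.36), SPARC (0.801), ACTG1 (0.41), EIF5A (0.013), FBXO31 (0.397), KLF9 (0.67), DDX58 (-1.53), B2M (0.18) and ALAS1 (0.38), where brackets give that mean difference. The sign turned without a call for NFIC (-0.102), HSPA8 (-0.25) and SLA-DRB1 (0.041), and for GABARAP (-0.33) and VEGFA (0.036), which had no call as deposited. NR3C1 had 4 probe sets, of which 1 rose and 1 fell, and their mean difference was -0.78 (adjusted p = 0.036). Probe sets of HSPB6, PDIA3, B2M, HSPA8 and NFIC likewise passed in opposite directions. The call was kept but the mean difference over probe sets was smaller by more than 1.5 times for AKR1CL1 (1.35), UBE2C (-1.86), PEG10 (-1.28), VCAN (-1.32), PEG3 (-1.31), COL5A2 (-1.29), ACTB (0.74), TYMS (-1.44), HSPB6 (0.74), BAG3 (0.79), DNAJA1 (-0.62), HR (1.297), ATP1B1 (1.12) and AQP1 (0.799), and for NR3C1 as given.

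Counts of 0 or 1 in other lists also moved by 1 with single animals left out. The count of rises went from 0 to 1 for the Wnt, Notch and Hedgehog genes and collagen processing enzymes without newborn 5, mitosis genes without newborn 2, 3 or 4, chromatin regulators without newborn 5 or 6, cell cycle brakes without newborn 2, hypoxia targets without newborn 2 or 6 or fetus 4, and endothelial markers without fetus 1, and from 1 to 2 in the insulin-like growth factor axis without newborn 1. The count of falls went from 0 to 1 for Z-disc genes without newborn 1 or fetus 3, proteasome subunits without newborn 5 or 6, and oxygen and iron handling genes without newborn 1, 4 or 5. Falls went from 1 to 2 for collagen processing enzymes without newborn 2 or 6, atrophy ligases and thyroid hormone genes without newborn 1, and glucocorticoid-responsive genes without newborn 6, and 1 cartilage and tendon marker rose without newborn 6.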

How the data were processed

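Signals were made by the authors with GCOS 1.1.1, per the submitters' processing notes, and the deposited values are linear scaled intensity, 1 per probe set and array. The scaling and probe summary settings are not given in the sources used here. The file holds 24118 probe sets, of which 183 control probe sets were left out. Values were taken as log2 with nothing added and no filter on low values.

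Stages were compared with limma 3.58.1 in R 4.3.3 (lmFit, eBayes) using the 24 arrays of all 4 stages, which leaves 20 residual degrees of freedom. Tests were two-sided and p-values adjusted by Benjamini-Hochberg over 23935 probe sets. Further software was data.table (version 1.17.8), Python 3.11.15, pandas 2.3.3 and numpy 2.4.6, and plots matplotlib 3.10.9. Array number limits the precision. Animals are numbered in sample order within a stage, with no pairing. Littermates depend on each other, so p-values are too small to an unknown degree, and array batches are not in the labels.

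Of the tested probe sets 10069 have 1 gene symbol in the platform annotation, 198 several and 13668 none, which gave 6765 genes, each read by the probe set with the highest mean log2 value over all arrays. No coordinates are given, as no genome build belongs to the files. Probe sets of near-identical genes (actins, ubiquitins, MHC chains) may read each other's transcripts. The background level is the 95th percentile of 17 Tag control probe sets.

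The 37 function lists, 12 marker lists, the comparison and all rules were chosen with earlier results of these data known. Named genes are the 14 largest rises and falls that passed in 3 fits, did not overlap, had a mean of 200 or more in the higher stage, a gene name and no place in the energy lists, and for each list the 4 or fewer called members of largest difference, the brightest member and members against the majority. Which of these 188 genes are named was settled while writing, with values seen. The script was tested on simulated data.

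Alternatives were quantile normalization, centring of each array on its median, leaving out or keeping only the low-ratio newborns, both changes together, 16 added before the log2, leaving out the dimmest 30% of probe sets, a fit of only the 2 stages, each array left out in turn, and averaging a gene's probe sets.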

Additional observations from a re-analysis of the deposited data

Results flagged for a closer look

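In each stage the 6 log2 values of a named gene were checked for a lowest or highest animal. An animal was flagged if its gap to the nearest other on the log2 scale exceeded Dixon's limit for 6 values. Of 286 such groups 43 had 1. The limit flags about 1 in 20 groups of independent, normally distributed values. These groups share the same 12 arrays and some values lie under background, so that rate is no measure of chance here. The values printed are scaled intensities, not log2, and brackets give the range of the other 5 animals.

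Fetus 5 accounted for 19 of them, and it is the animal with the high macrophage and lymphocyte marker sums. It was the highest fetus for SPP1 at 20499 (4109.6 to 7002), TPM3 at 5172 (3019 to 3481), IGF1 at 549 (268 to 331), HSPA5 at 9779 (7093 to 7484) and PDIA3 at 2980.1 (2053 to 2356). It was also the highest for FKBP5 at 329 (72.9 to 103), DDX58 at 1412 (102 to 196), CD74 at 1339.9 (281 to 381), SLA-DQA1 at 5437 (1134 to 1777), SLA-DRA at 7988 (1259 to 1694) and SLA-DRB1 at 6266 (1283 to 1975). It was the lowest fetus for ATP2A1 at 557 (1329 to 1809.8), TMOD4 at 1762 (3229 to 4543), TCAP at 6992 (10979 to 14254), GRB10 at 625 (1096 to 1383) and UBB at 31379.9 (39085 to 44043), and for PPP1R15A at 201 (511 to 689), B2M at 25964 (33289 to 37528) and FTH1 at 25496 (32911 to 37475).

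Newborn 1 was the highest newborn for HMGB2 at 1832 (568 to 776), EIF3E at 5676 (4069 to 4301) and FOS at 1348 (256 to 461). Newborn 3 was the highest newborn for AKR1CL1 at 773 (264 to 348), and the lowest newborn for EZH2 at 15.5 (74.9 to 115), ANKRD37 at 6.08 (60.3 to 139.9), SLC2A3 at 86.2 (234 to 368), CA12 at 57.5 (164 to 196) and DDX58 at 2.30 (58.3 to 91.9). Newborn 4 was the highest newborn for PPP1R15A at 406 (70.8 to 123), and the lowest newborn for LMNB1 at 57.5 (115 to 169.5) and IL18 at 74.4 (215 to 379). Newborn 6 was the highest newborn for CNN3 at 5441 (1278 to 2129.6), and the lowest newborn for PEG10 at 128 (1389 to 4808). Fetus 2 was the lowest fetus for RAB3A at 14.5 (91.7 to 165), HR at 30.4 (93.8 to 155) and CA12 at 305 (425 to 482). Fetus 4 was the highest fetus for CST6 at 385 (9.38 to 22.4) and ACTB at 8866 (6485 to 7274), and the lowest fetus for POSTN at 8556 (12739 to 15237), MSTN at 74.7 (211 to 388), HNRNPA3 at 406 (1431 to 2221) and EIF3E at 5967 (9356 to 11159). Fetus 6 was the lowest fetus for TP53INP2 at 76.1 (175 to 261). The low-ratio newborns 1 and 3 held 3 and 6 of these values, and newborns 4 and 6, whose ratio was not low, 3 and 2. Without the animal concerned, each called gene kept its direction and its call, except DDX58 without fetus 5, which missed the threshold (adjusted p = 0.066). DDX58 fell by 1.44 on the log2 scale without newborn 3, against 2.27 with it.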

How the results depend on the processing

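Scaling changed the counts most. With each array centred on its median, 4107 probe sets rose and 2831 fell, against 2429 and 4980 as deposited, and 1835 genes rose and 747 fell. With quantile normalization and no low-ratio arrays, 2810 probe sets and 882 genes fell. These counts stayed within 1.5 times under the other alternatives, and with 1 array left out 1045 to 1181 genes rose and 1232 to 1428 fell. Signs turned after quantile normalization for MYL1 (-0.074), SPARC (-0.053), UBB (-0.16), GABARAP (-0.55), B2M (-0.22) and FTH1 (-0.083), for TNNI1 (-0.31) and HSPA5 (-0.39), and with the low-ratio arrays left out as well for MYL1 (-0.0003), ATP2A2 (-0.15), SPARC (-0.21), ACTG1 (-0.066), UBB (-0.26), GABARAP (-0.55), HSPA5 (-0.298) and B2M (-0.43). The mean of all probe sets turned NFIC (-0.102), HSPA8 (-0.25), SLA-DRB1 (0.041), GABARAP (-0.33) and VEGFA (0.036). Of genes with no call as deposited, COL6A3 and VEGFA also turned with median centring, COL6A3 without the low-ratio arrays, and TNNI1, GABARAP, HSPA5 and VEGFA with only those newborns. The median of the adult contractile list turned with quantile normalization (-0.074, and -0.0003 without the low-ratio arrays), and those of splicing (0.034) and cytokine genes (0.034) with median centring. Centring also took the medians of the fetal contractile (0.28), insulin-like growth factor (0.27), collagen processing (0.053), cytoskeletal (0.017), clock (0.17), immediate early (0.14) and antigen presentation lists (0.053) above 0, where the median of all genes was 0.26. Quantile normalization took that of the insulin-like growth factor and clock lists above 0 (0.204 and 0.11), and those of translation, atrophy and iron lists below it (-0.021, -0.069 and -0.011). Quantile normalization without the low-ratio arrays ended, beside the sign turns, the calls of CASQ2, NFIC, MEF2D, IGFBP2, IGF1, COL5A2, MGP, ACTB, EZH2, PSMA7, SQSTM1, HSPA8, PPP1R15A, TXNIP, BHLHE40, FOS, MYC, DDX58, CD74, SLA-DQA1, SLA-DRA and SLA-DRB1. Median centring ended the calls of TPM3, IGF2, JAG1, P4HA2, PDIA3, FOS, MYC and DDX58, a fit of only the 2 stages those of DDIT3, MYC, DDX58, SLA-DRA, SLA-DRB1, B2M and FTH1, and keeping only the low-ratio newborns those of MYF5, PSMB3, FOS, EGR1, IL18, FTH1 and SLC38A1. The cause was not tested. Without the dimmest 30% of probe sets the other named genes kept their calls, and SKA1 gave no value. No paired analysis was possible because animal numbers only follow sample order and fetuses and newborns are different animals. Signal near background limits SKA1, TRNP1, CST6 and other genes given as bounds.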
